A study of Homo sapiens with 18 samples.

Results

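Polycomb and DNA methylation maintenance genes were examined as a set of 10, out of 58302 genes in the count table: the Polycomb repressive complex 2 (PRC2) genes EZH2, EZH1, EED and SUZ12, the DNA methyltransferase genes DNMT1, DNMT3A and DNMT3B, the maintenance factors UHRF1 and HELLS, and the histone H3K9 methyltransferase gene SUV39H1. The genes were taken by symbol for their function, with earlier results of these data known. All 10 had counts in every library and passed the filter on low counts. RNA-seq was performed on U87, an established human glioblastoma cell line, with 2 libraries of control cells in normal growth condition and 2 libraries of cells given 10 μM Erastin for 72 h. All cells were grown in serum-containing medium with antibiotics, and Erastin is a small molecule that blocks cystine uptake through system xc- and thereby induces ferroptosis, a form of cell death driven by lipid peroxidation. The comparison asks which genes differ in RNA level after Erastin. The labels call the libraries biological replicates without naming separate cultures, so p-values measure the spread between these libraries, and 1 line at 1 dose and 1 time was measured.

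PRC2 places methyl groups on lysine 27 of histone H3, a mark of repressed genes. EZH2 and EZH1 are alternative catalytic subunits, EED binds the mark and activates the enzyme, and SUZ12 holds the complex together. EZH2 is typical of dividing cells and EZH1 of resting cells. DNMT1 copies CpG methylation onto the new DNA strand after replication, guided by UHRF1, which recognises hemimethylated CpGs, and helped by the chromatin remodeller HELLS. DNMT3A and DNMT3B methylate CpGs de novo. SUV39H1 trimethylates lysine 9 of histone H3 in heterochromatin.

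Library totals ranged from 29412656 to 31513519 counts, and 16751 genes were tested. Glioma markers VIM and CD44 were abundant in all libraries, at 48117 to 77887 and 31559 to 43669 counts, whereas SOX2 had 0 to 6 counts. GFAP (46, 41, 69 and 81 counts, log2FC 0.79, edgeR adjusted p = 0.0696) and OLIG2 (88, 79, 67 and 59 counts, log2FC -0.40) were low. The 6 glioma markers, mostly VIM and CD44, summed to 3997 and 3923 counts per 1000000 (CPM, on totals scaled by TMM) in control. In Erastin the sum was 2672 and 2861 CPM. NES among the 6 markers was called lower (1277, 972, 105 and 77 counts, log2FC -3.62, edgeR adjusted p = 3.97e-08). Blood cell markers summed to 0 to 0.100 CPM, with CD3E at 0 counts, and epithelial markers to 0.223 to 0.547 CPM, with CDH1 and KRT18 at 0. Endothelial markers summed to 12.5 and 14.8 CPM in control and 5.25 and 6.97 CPM in Erastin, with CDH5 at 0 to 1 counts. Within that list PECAM1 was called lower (log2FC -2.34) and VWF higher (log2FC 2.58, from 4, 4, 17 and 32 counts), and KDR fell (log2FC -0.95). The part of these marker differences in the results was not tested. Fewer cells expressing a gene and less RNA per cell cannot be told apart in these libraries.

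RNA of most genes of the set was lower in Erastin than in control. With the thresholds of an adjusted p below 0.05 and a log2 fold change (log2FC) of at least 1 in size, 5 of the 10 genes were called lower (DNMT3B, DNMT3A, HELLS, UHRF1 and EZH2) and 0 were called higher, in edgeR's quasi-likelihood test with Benjamini-Hochberg adjustment over all genes tested. Over all genes tested, 15.6% were called, 9.34% lower and 6.24% higher. DESeq2 also called 5 lower and 0 higher, and at an unadjusted p below 0.05 in edgeR 8 were lower and 1 was higher. On the adjusted p alone, 8 genes fell, EZH1 rose and EED did not pass, against 23.7% of all genes lower and 23.2% higher. The median log2FC was -0.96 over the 10 genes and -0.0026 over all genes tested. In 8 genes both Erastin libraries lay below both controls, where 36.9% of all genes did, and in 1 gene both lay above, where 36.7% did.

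**Figure D1:**
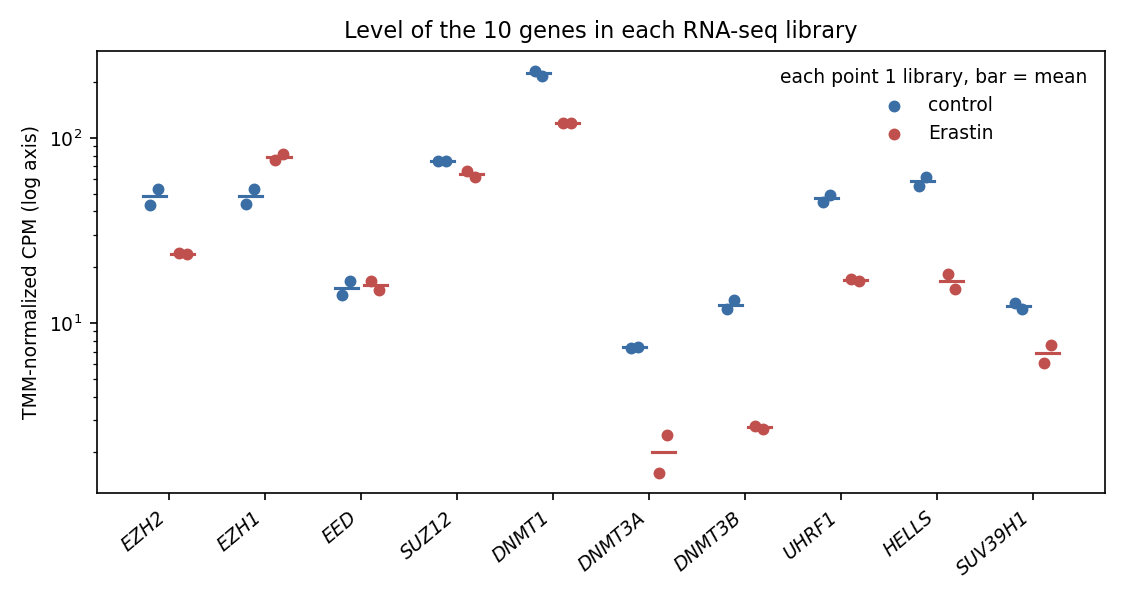
Normalised RNA level of each gene in CPM (log axis) in 2 control and 2 Erastin libraries, with points for libraries and short lines for group means. Control and Erastin points are separate for 9 genes and overlap for EED, and EZH1 is the gene with Erastin above control.

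Promoter windows were searched for all 10 genes, and sequences are shown for 4 genes that fell and held an E2F word near the start, and for EZH1, which rose and also held one. DNMT3B, DNMT3A and SUV39H1 fell too, and their windows held no E2F word. The windows come from RefSeq (build GRCh38.p14) and span 250 bases before to 50 bases after a transcription start, and for each gene the window nearest to the 5′ end of its counted model was taken. Shown are the 120 bases before and 25 bases from the start, with the letters of an E2F word (TTTCCCGC, TTTCGCGC, TTTGCCGC or TTTGGCGC, on either strand) in capitals. E2F proteins are transcription factors of genes used in S phase. The stretches are chr7:148884267-148884411 (minus strand) for EZH2, chr19:10194929-10195073 (minus) for DNMT1, chr19:4909381-4909525 (plus) for UHRF1, chr10:94545668-94545812 (plus) for HELLS and chr17:42745016-42745160 (minus) for EZH1.
EZH2: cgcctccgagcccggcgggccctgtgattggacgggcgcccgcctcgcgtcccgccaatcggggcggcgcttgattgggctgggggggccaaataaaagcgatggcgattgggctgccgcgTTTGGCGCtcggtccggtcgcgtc
DNMT1: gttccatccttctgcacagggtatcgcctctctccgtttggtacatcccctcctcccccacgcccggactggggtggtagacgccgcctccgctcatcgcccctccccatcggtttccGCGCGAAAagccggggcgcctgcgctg
UHRF1: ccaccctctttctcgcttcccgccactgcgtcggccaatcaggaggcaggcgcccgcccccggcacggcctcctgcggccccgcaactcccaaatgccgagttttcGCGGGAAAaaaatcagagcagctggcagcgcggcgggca
HELLS: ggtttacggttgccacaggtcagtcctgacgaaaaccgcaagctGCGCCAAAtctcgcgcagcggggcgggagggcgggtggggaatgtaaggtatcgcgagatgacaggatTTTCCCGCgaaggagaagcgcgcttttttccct
EZH1: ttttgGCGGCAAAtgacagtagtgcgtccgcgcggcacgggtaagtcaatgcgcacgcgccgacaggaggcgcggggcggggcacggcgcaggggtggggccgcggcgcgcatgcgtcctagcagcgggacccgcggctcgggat

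An E2F word was present in 6 of the 10 windows, those of EZH2, EZH1, SUZ12, DNMT1, UHRF1 and HELLS. The same words were present in 3.31% of 35116 windows of 300 bases, and in 4.4% of the 24370 windows with at least 50% G and C. In DNMT1 the word lay at -2 to 6 relative to the start, in EZH2 at 2 to 9, and in UHRF1 at -14 to -7. HELLS had matches at -76 to -69 and at -8 to -1. In EZH1 the word lay farther upstream, at -115 to -108, and in SUZ12 at -189 to -182. The word was therefore present both in genes that fell and in EZH1, which rose.

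The CCAAT box was present in 6 of the 10 windows against 34.6% of all windows, and EZH2 held 4 of them. The cell cycle homology region word TTTGAA was present in 1 window, that of SUZ12, against 15.2% of all. The windows of DNMT3A and SUV39H1 held no match to any of these words, and that of DNMT3B held a single CCAAT. The RefSeq start searched lay far inside the counted gene model for HELLS (44354 bases from its 5′ end), DNMT1 (36333 bases), DNMT3B (17467 bases) and UHRF1 (6421 bases), so a start used by other transcripts of these genes was not searched. In the other 6 genes it lay from 11 bases before to 209 bases after the 5′ end. DNMT3A has 6 windows in the table, UHRF1 3, and EZH2 and SUV39H1 2 each, of which 1 each was searched.

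**Figure D2:**
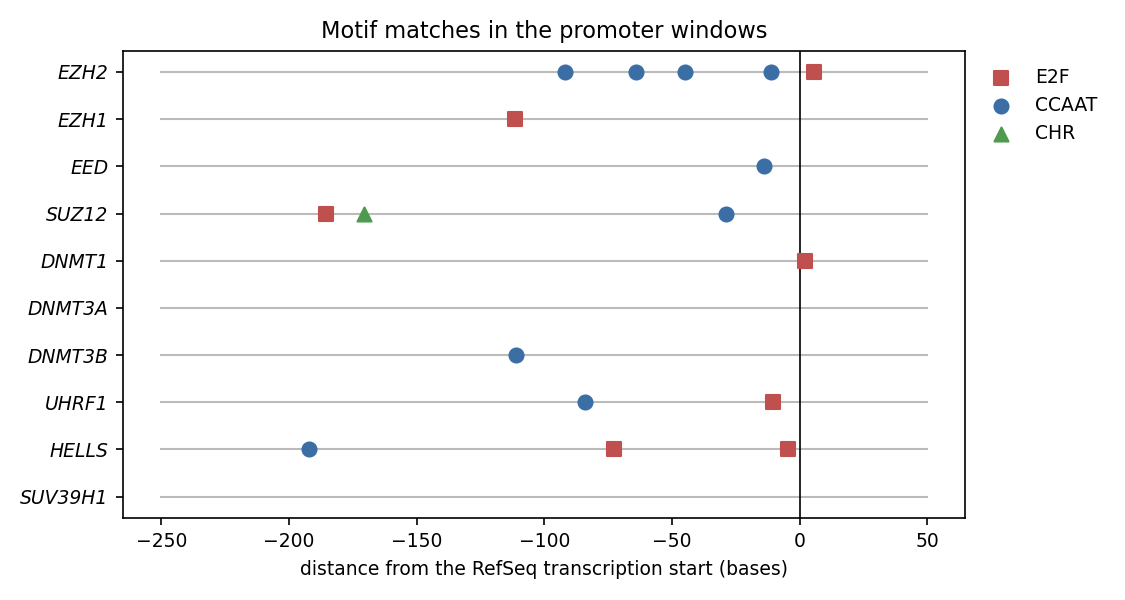
Positions of E2F, CCAAT and TTTGAA words in the promoter window of each gene, in bases from the RefSeq transcription start. E2F words lie within 14 bases of the start in EZH2, DNMT1 and UHRF1, at -76 to -69 and -8 to -1 in HELLS, at -115 to -108 in EZH1 and at -189 to -182 in SUZ12, and the windows of DNMT3A, DNMT3B, EED and SUV39H1 hold none.

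Among the PRC2 genes, the catalytic subunits moved in opposite directions. EZH2 (ENSG00000106462, chr7:148807383-148884321, minus strand, GRCh38) had 1328 and 1649 counts in control and 713 and 739 in Erastin, or 43.4 and 53.1 CPM against 23.8 and 23.5 CPM. Both Erastin libraries lay below both controls, at means of 48.3 ± 6.82 and 23.7 ± 0.225 CPM (SD, n = 2 each). The log2FC of EZH2 was -1.03 (SE 0.113, 95% interval -1.27 to -0.78, edgeR adjusted p = 1.52e-05), which left 49.1% of the control level. This value sat near the fold threshold: it was -0.98 when scaled to library totals and -0.88 without control replicate 2, where EZH2 was not called.

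EZH1 (ENSG00000108799, chr17:42700275-42745049, minus strand) had 43.9 and 53.0 CPM in control and 76.2 and 81.4 CPM in Erastin, from 1341, 1647, 2280 and 2559 counts. Both Erastin libraries exceeded both controls, and the level rose to 163% of control. The log2FC of EZH1 was 0.70 (SE 0.0958, 95% interval 0.49 to 0.91, edgeR adjusted p = 8.63e-05), below the fold threshold.

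Since both genes were measured in the same library, their ratio does not depend on scaling between libraries. Per kb of exon, EZH2 to EZH1 was 1.53 and 1.55 in control and 0.483 and 0.446 in Erastin. EZH2 thus made up 60.5% and 60.7% of the summed level of the pair in control and 32.6% and 30.9% in Erastin. The ratio was 3.31-fold lower in Erastin (difference of the mean log2 ratios -1.73; exact two-sided permutation p = 0.333, the smallest that 2 against 2 libraries allow). In CPM per kb of exon (RPKM scaled by TMM), the sum of EZH2 and EZH1 was 15.9 and 19.3 in control and 16.2 and 16.9 in Erastin, and the groups overlapped (17.6 ± 2.44 and 16.5 ± 0.478, SD, n = 2 each). That sum was chosen after the values were seen. Per kb of exon, the order of the pair was reversed, with EZH2 above EZH1 in both controls and below it in both Erastin libraries. The control order and shares rest on exon lengths of 4522 bases for EZH2 and 6988 for EZH1. Before division by length, the pair was nearly equal in control, at 43.4 and 53.1 CPM for EZH2 and 43.9 and 53.0 for EZH1. The change of the ratio between groups does not depend on these lengths.

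**Figure D3:**
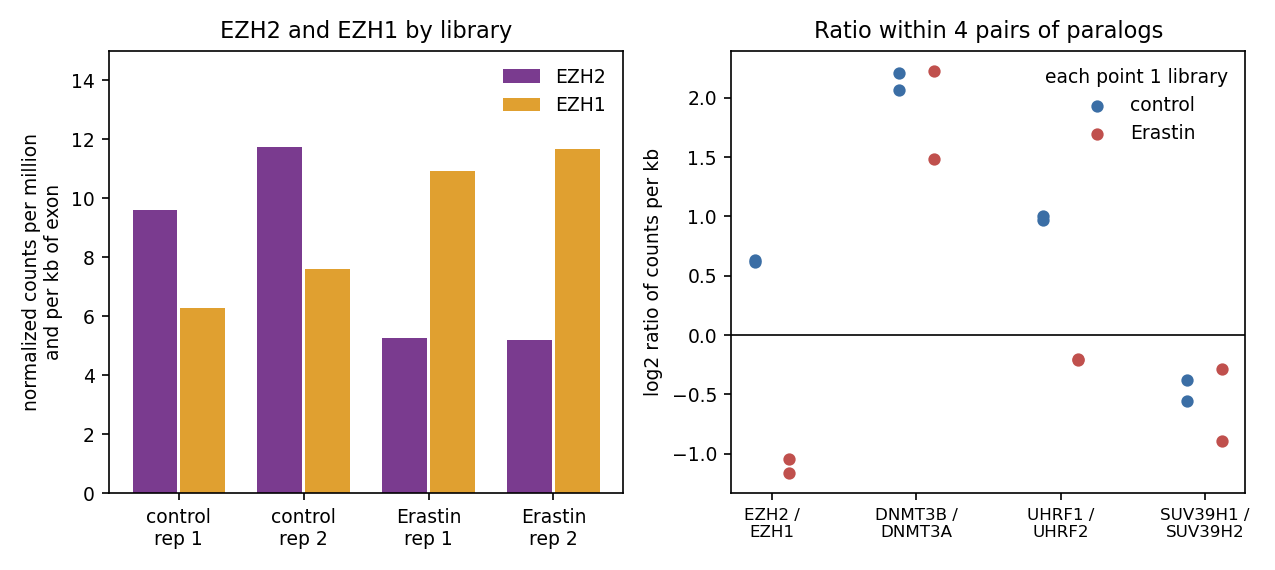
Log2 ratio of counts per kb of exon for 4 pairs of related genes, with 1 point for each control and each Erastin library and a line at equal levels. Bars beside it give EZH2 and EZH1 in CPM per kb of exon in each library. EZH2 to EZH1 and UHRF1 to UHRF2 are separate between groups by 1.73 and 1.19 on the log2 scale, and the points of DNMT3B to DNMT3A and SUV39H1 to SUV39H2 overlap.

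The shared PRC2 subunits moved less. EED (ENSG00000074266, chr11:86244544-86278813, plus strand) had 431 and 524 counts in control and 505 and 475 in Erastin, at 14.1, 16.9, 16.9 and 15.1 CPM, so the groups overlapped. Its log2FC was 0.05 (SE 0.139, edgeR adjusted p = 0.811), with a 95% interval of -0.26 to 0.35. SUZ12 (ENSG00000178691, chr17:31937018-32001045, plus strand) had 74.8 and 74.6 CPM in control and 66.4 and 61.4 CPM in Erastin, from 2286, 2316, 1985 and 1929 counts. SUZ12 fell to 85.6% of control (log2FC -0.23, SE 0.0760, edgeR adjusted p = 0.0293). The adjusted p for SUZ12 was 0.0747 in DESeq2, 0.0822 in edgeR with library totals, 0.0521 without Erastin replicate 1 and 0.241 without Erastin replicate 2. Of the 31-base words in SUZ12 exons, 24.97% also occurred elsewhere in the genome, and the pseudogene SUZ12P1 had 326, 376, 234 and 212 counts, so reads of this pair may be shared or lost.

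All 3 DNA methyltransferases fell, and the de novo enzymes DNMT3A and DNMT3B were called lower while DNMT1 missed the fold threshold. DNMT1 (ENSG00000130816, chr19:10133345-10231286, minus strand) had 7030 and 6725 counts in control and 3583 and 3762 in Erastin, or 229.9 and 216.5 CPM against 119.8 and 119.7 CPM. All Erastin values lay below the controls, and 53.7% of the control level was left. The log2FC of DNMT1 was -0.90 (SE 0.0673, 95% interval -1.05 to -0.75, edgeR adjusted p = 6.45e-07), which is under the fold threshold although its p is smaller than that of EZH2.

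DNMT3A (ENSG00000119772, chr2:25227855-25342590, minus strand) had 224 and 231 counts in control and 46 and 78 in Erastin, or 7.33 and 7.44 CPM against 1.54 and 2.48 CPM. It was the gene of the set with the lowest level per kb of exon, and the Erastin libraries differed from each other more than the controls did. The log2FC of DNMT3A was -1.87 (SE 0.262, 95% interval -2.45 to -1.30, edgeR adjusted p = 1.07e-04), and it ranged from -2.26 to -1.57 over the fits that each omit 1 library.

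DNMT3B (ENSG00000088305, chr20:32762385-32809356, plus strand) had 362 and 411 counts in control and 83 and 84 in Erastin, or 11.8 and 13.2 CPM against 2.77 and 2.67 CPM. This was the deepest fall of the set, to 21.8% of control. The log2FC of DNMT3B was -2.20 (SE 0.187, 95% interval -2.61 to -1.79, edgeR adjusted p = 1.84e-06). Per kb of exon, DNMT3B exceeded DNMT3A 4.196- and 4.62-fold in control and 4.68- and 2.80-fold in Erastin. The ratios overlapped between groups (log2 difference -0.28, exact two-sided permutation p = 1). No fit tested the fall of DNMT1 against those of DNMT3A or DNMT3B, but the 95% interval of DNMT1 lay wholly above both of theirs.

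The maintenance factors UHRF1 and HELLS were both called lower. UHRF1 (ENSG00000276043, chr19:4903080-4962154, plus strand) had 1369 and 1531 counts in control and 517 and 532 in Erastin, or 44.8 and 49.3 CPM against 17.3 and 16.9 CPM. The replicates of each group lay close together and the groups were far apart, with 36.4% of the control level left. The log2FC of UHRF1 was -1.46 (SE 0.104, 95% interval -1.69 to -1.23, edgeR adjusted p = 4.22e-07). Since 52.9% of the 31-base words of its exons also occurred elsewhere on the chromosomes, and reads with several matches were not counted, its level may be understated.

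UHRF2, the related gene, had 1314 and 1509 counts in control and 1149 and 1184 in Erastin. It fell by 0.27 on the log2 scale (edgeR adjusted p = 0.0365), a call not kept in DESeq2 (adjusted p = 0.0841) or with library totals (adjusted p = 0.0901), nor without control replicate 2, Erastin replicate 1 or Erastin replicate 2 (adjusted p = 0.230, 0.110 and 0.140). Per kb of exon, UHRF1 to UHRF2 was 2.01 and 1.96 in control and 0.867 and 0.866 in Erastin (log2 difference -1.19, exact two-sided permutation p = 0.333, the smallest possible). Which of the pair was higher in Erastin cannot be read, since 52.9% of UHRF1 words and 4.73% of UHRF2 words occurred elsewhere and the ratio lies close to 1.

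HELLS (ENSG00000119969, chr10:94501434-94613905, plus strand) had 1680 and 1911 counts in control and 548 and 477 in Erastin, or 54.9 and 61.5 CPM against 18.3 and 15.2 CPM. HELLS fell to 28.8% of control, with no overlap of the groups. The log2FC was -1.80 (SE 0.116, 95% interval -2.05 to -1.54), with an edgeR adjusted p of 1.76e-07, the smallest of the 10 genes.

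SUV39H1 (ENSG00000101945, chrX:48695554-48709012, plus strand) had 392 and 371 counts in control and 182 and 240 in Erastin, or 12.8 and 11.9 CPM against 6.09 and 7.64 CPM. It fell to 55.5% of control without overlap of the groups (log2FC -0.85, SE 0.170, edgeR adjusted p = 0.00151), and was called lower in the fit without Erastin replicate 2, at -1.02. An antisense gene with 0 to 7 counts shares 20.3% of the SUV39H1 exon bases. Counting ignored strand and left out reads matching several genes, so SUV39H1 reads in the shared bases may be lost. SUV39H2, the related enzyme, had 540, 576, 358 and 310 counts and also fell (log2FC -0.73, edgeR adjusted p = 0.00121). The ratio of SUV39H1 to SUV39H2 per kb was 0.768 and 0.682 in control and 0.538 and 0.819 in Erastin, which overlapped (log2 difference -0.12, exact two-sided permutation p = 1).

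**Figure D4:**
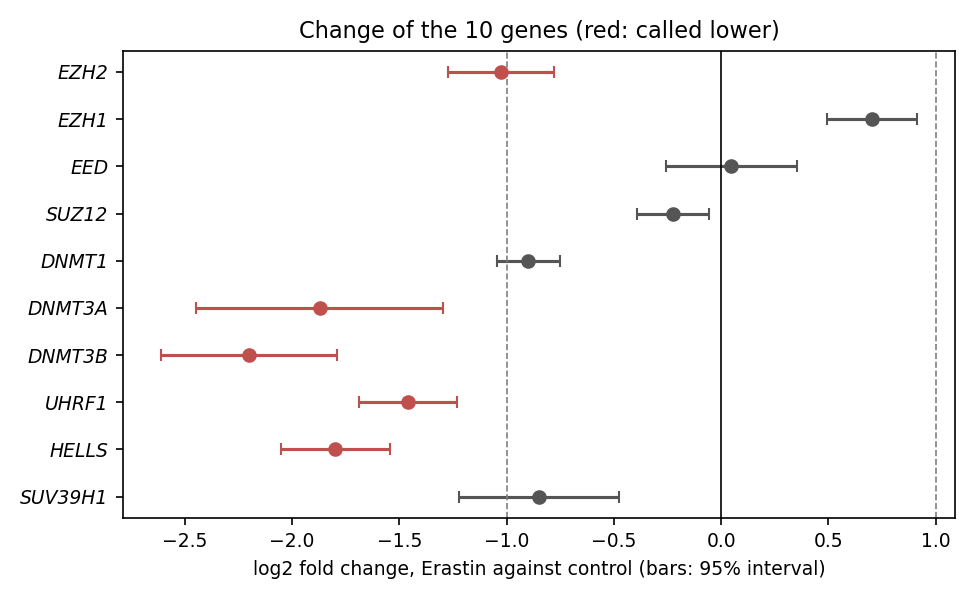
Log2 fold change of each gene, Erastin against control, from edgeR with its 95% confidence interval, beside lines at 0 and at the fold threshold of 1 in each direction. DNMT3B is lowest at -2.20, EZH1 is the gene above 0 whose interval excludes it (0.49 to 0.91), and the interval of EED spans 0.

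Levels per kb of exon allow the genes to be ordered within a group, on the length of all exons rather than of the transcripts used. UHRF1 (52.9% of exon words elsewhere) and SUZ12 (24.97%) may be understated, and SUV39H1 may lose reads where its antisense gene overlaps. The places of these genes in both groups are therefore uncertain. In control, DNMT1 was highest at 22.8 ± 0.969 CPM per kb (SD, n = 2), followed by SUZ12 at 11.4 and EZH2 at 10.7, whose libraries did not separate. UHRF1 at 9.14, EZH1 at 6.93, HELLS at 5.74 and SUV39H1 at 3.68 followed, each with both libraries above those of the next gene. DNMT3B at 2.71, EED at 2.21 and DNMT3A at 0.614 CPM per kb were lowest.

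In Erastin, DNMT1 remained first at 12.2 CPM per kb, and EZH1 stood second at 11.3 ± 0.528, above SUZ12 at 9.76 and EZH2 at 5.24. UHRF1 at 3.33 came next, and EED at 2.28 and SUV39H1 at 2.04 did not separate. HELLS at 1.65 dropped below both of these, and DNMT3B at 0.588 and DNMT3A at 0.167 were last. The summed level of the 3 DNA methyltransferases was 26.6 and 25.6 CPM per kb in control and 12.96 and 13.01 in Erastin. This sum was mostly DNMT1, at means of 22.8 in control and 12.2 in Erastin. The summed level of the 4 PRC2 genes was 29.3 and 33.1 in control and 28.7 and 28.4 in Erastin. Neither sum was among the planned results.

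The partners of PRC2 were read from lists of pathway genes. Of 10 accessory subunits, 8 were tested, and 1 was called lower and 0 higher (DESeq2 also 1 and 0). Among all genes tested, edgeR called 9.34% lower and 6.24% higher. On the adjusted p alone 3 fell and 2 rose, where 23.7% and 23.2% of all genes did. The median log2FC of 0.14 includes PHF1 (log2FC 1.69), whose value cannot be read, as given below. PHF19, a reader that recruits PRC2, was the gene called lower, with 56.6 and 54.2 CPM in control and 16.6 and 14.3 CPM in Erastin (log2FC -1.85, edgeR adjusted p = 7.61e-08). RBBP7, a histone chaperone subunit, fell (log2FC -0.74, edgeR adjusted p = 5.26e-06) and LCOR, which encodes a PRC2-binding protein, rose (log2FC 0.76, edgeR adjusted p = 6.89e-06), both chosen after their values were seen. For PHF1, 99.0% of exon words also matched alternate scaffolds, and its counts of 114, 13, 27 and 392 can be read no further.

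Of 20 PRC1 genes, whose complex ubiquitinates histone H2A, 18 were tested, 1 was called lower and 0 higher (DESeq2 1 and 0). The shares called over all genes were 9.34% lower and 6.24% higher. On the adjusted p alone 7 rose and 3 fell, where 23.2% and 23.7% of all genes did, and the median log2FC was 0.08. Among the 3 that fell was PHC1, with 82.3% of its exon words also present elsewhere. The gene called was PHC2, a polyhomeotic subunit, at 325.9 and 304.3 CPM in control and 157.3 and 155.1 CPM in Erastin (log2FC -1.01, edgeR adjusted p = 2.34e-07), and its log2FC was -0.96 with library totals and -0.96 without control replicate 1, where the fold threshold was missed. The PRC1 count called lower was 3 without Erastin replicate 2, and 1 gene was called higher without Erastin replicate 1. Of 5 genes that remove Polycomb marks (KDM6A, KDM6B, BAP1, ASXL1 and ASXL2), 0 were called by edgeR or DESeq2, and on the adjusted p alone 3 rose and 1 fell (unadjusted also 3 and 1), at a median of 0.19.

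Of 9 listed cofactors and regulators of DNA methylation, 7 were tested, and 3 were called lower and 0 higher (DESeq2 also 3 and 0). Over all genes tested, edgeR called 9.34% lower. On the adjusted p alone 6 fell and 0 rose (unadjusted 6 and 1), where 23.7% of all genes fell, and the fall of UHRF2 among them was not kept in DESeq2 or with library totals, as given above. The median log2FC was -0.49. CDCA7, which brings HELLS to chromatin, had 12.6 and 14.04 CPM in control and 1.87 and 1.88 CPM in Erastin (log2FC -2.83, edgeR adjusted p = 3.23e-07). Its homologue CDCA7L (log2FC -1.27, edgeR adjusted p = 3.98e-07) and LIG1, the replicative DNA ligase (log2FC -1.10, edgeR adjusted p = 3.90e-05), were the others called. In a test against the fold threshold itself (glmTreat), LIG1 was not called (adjusted p = 0.658). DNMT3L and DPPA3 had 0 counts in every library.

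On the removing side of DNA methylation, 3 of 4 genes were tested and 0 were called by either tool. On the adjusted p alone TDG rose and TET3 fell (unadjusted also 1 and 1). Of all genes tested, edgeR called 15.6%, and on the adjusted p alone 23.2% rose and 23.7% fell. TDG, the glycosylase that excises oxidised methylcytosine, had a log2FC of 0.41, with 43.8% of its exon words also present elsewhere, and TET3, a methylcytosine oxidase, had -0.41. Of 8 methyl-CpG readers, 7 were tested, 0 were called by either tool, and on the adjusted p alone 3 rose and 0 fell (unadjusted 4 and 1), with a median of 0.26. Among these, MBD1 rose (log2FC 0.82, edgeR adjusted p = 2.57e-06), with ZBTB38 at 0.70; these 4 genes were singled out after their values were seen.

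For H3K9 methylation, 10 of 11 further writers and readers were tested and 0 were called by edgeR or DESeq2. On the adjusted p alone 5 fell and 0 rose (unadjusted also 5 and 0), at a median of -0.33. Across all genes tested, edgeR called 15.6%, and on the adjusted p alone 23.7% fell and 23.2% rose. The 3 HP1 genes CBX1, CBX3 and CBX5, whose proteins bind methylated H3K9, had log2FC of -0.57, -0.64 and -0.59 and passed the test, as did SUV39H2 and EHMT1. These genes other than SUV39H2 were named after their values were seen. In CBX1, CBX3 and CBX5, 32.1%, 15.2% and 11.9% of exon words also occurred elsewhere, so their levels may be understated. Of 6 H3K9 demethylases, 0 were called by either tool, and on the adjusted p alone 3 rose and KDM1A, named after its value was seen, fell by 0.68 on the log2 scale (unadjusted 4 and 1).

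Genes of DNA replication and of its E2F and RB regulators were read as a gauge of S phase. All 6 MCM helicase genes were called lower, with log2FC from -2.52 (MCM5) to -1.29 and a median of -1.45, followed by MCM7 at -2.25 and MCM3 at -1.53. Of 10 E2F and RB genes, 9 were tested and 3 were called lower and 1 higher (DESeq2 3 and 1). In edgeR, 9.34% of all genes were called lower and 6.24% higher. On the adjusted p alone 4 fell and 3 rose, where 23.7% and 23.2% of all genes did. The median log2FC was -0.17. E2F7 (log2FC 0.85, edgeR adjusted p = 1.29e-06) and E2F3 (log2FC 0.49, edgeR adjusted p = 0.00315), both named after their values were seen, were among those that rose. In E2F3, 20.6% of exon words also occurred elsewhere. The lower ones were E2F8 (-1.67), E2F1 (-1.62) and RBL1 (-1.17), with edgeR adjusted p of 1.74e-05, 3.77e-08 and 1.08e-06. Against the fold threshold itself (glmTreat), RBL1 was not called (adjusted p = 0.140). CDKN1A, the p21 inhibitor of cyclin-dependent kinases, was the one called higher, with 224.4 and 206.9 CPM in control and 1150.1 and 1171.4 CPM in Erastin (log2FC 2.43, edgeR adjusted p = 3.98e-10). The proliferation marker MKI67 had a log2FC of -3.89. The part of fewer cells in S phase in the values of DNMT1, UHRF1, HELLS and EZH2 was not tested.

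**Figure D5:**
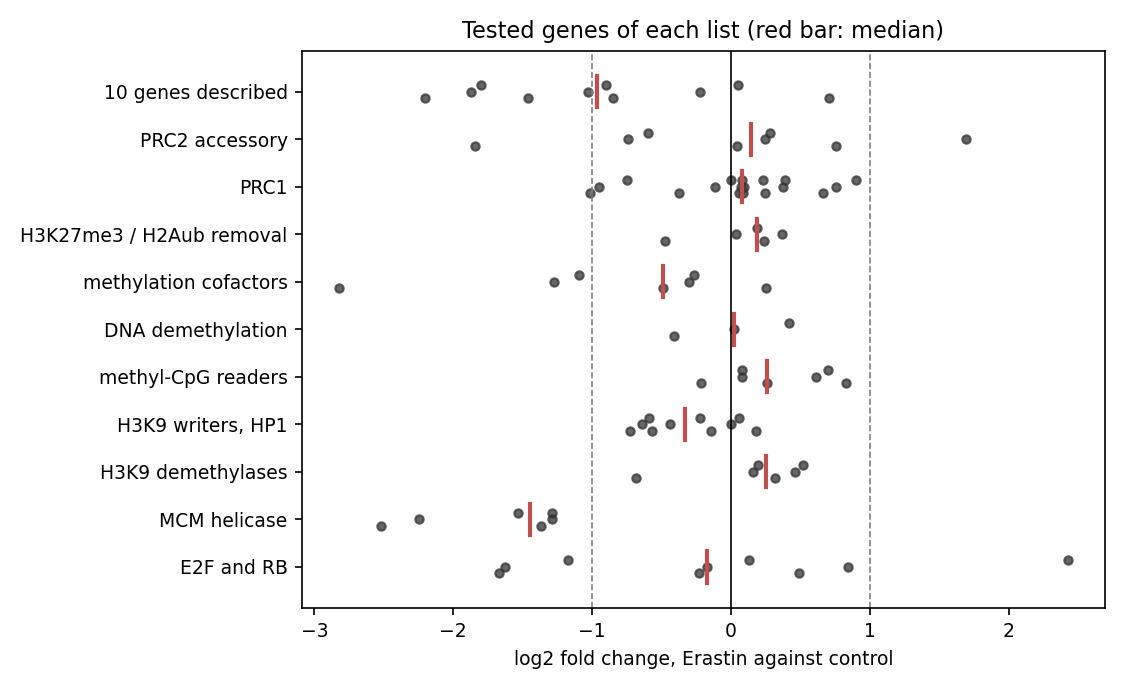
Log2 fold changes of the tested genes of each list, 1 point per gene, with the median as a line and points spread sideways for visibility. The 10 genes described have a median of -0.96 and the MCM genes of -1.45, while the PRC1 genes lie around 0.08.

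Genes held silent by these marks in other settings were read as 2 further lists. Of 39 HOX genes, classical Polycomb targets, 21 were tested, and 1 was called higher and 0 lower, against 6.24% and 9.34% of all genes. On the adjusted p alone 2 rose and 5 fell, where 23.2% and 23.7% of all genes did. The median log2FC was -0.34. The gene called, HOXA11, rested on 6 and 0 counts in control and 20 and 20 in Erastin (edgeR adjusted p = 0.0392), and the call was not kept in DESeq2 (adjusted p = 0.0921) or without control replicate 2, Erastin replicate 1 or Erastin replicate 2 (adjusted p = 0.226, 0.155 and 0.140). The count of HOX genes called lower was 2 without control replicate 2 and 2 without Erastin replicate 2, 1 without control replicate 1 and 1 with at least 10 counts in every library. DESeq2 called HOXB9 higher and not HOXA11, from 0 and 0 counts in control and 18 and 6 in Erastin (adjusted p = 0.0143), which the filter had left out of the edgeR test. Of 11 germline genes, many of them silenced by promoter methylation in somatic cells, 4 were tested and 0 were called in edgeR (unadjusted 0 higher and 1 lower), while DESeq2 called 1 higher, DDX4, from 0 and 0 counts in control and 8 and 12 in Erastin (adjusted p = 0.0275), and 0 lower. MAGEC1, already high at 226.9 and 219.3 CPM in control, fell to 149.3 and 166.1 CPM (log2FC -0.50, edgeR adjusted p = 1.34e-04), and was named after its values were seen.

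Of all 139 listed pathway genes, 35 did not pass the filter on low counts, and 15 of these had 0 counts in every library. EPOP, RING1, PCGF2 and EHMT2 had 0 to 3 counts, and 100.0% of their exon words also occurred on alternate scaffolds, so reads of these genes may have been discarded as matching several places. Their levels could therefore not be read.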

How the data were processed

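RNA-seq counts of 4 libraries of U87 cells were analysed; ChIP-seq and HiChIP were not analysed here. Per the submitters' processing notes and the file header, the authors aligned reads with HISAT2 2.1.0 and counted them on GRCh38 genes (Ensembl release 90) with featureCounts (2.0.3 in the header, 2.0.4 in the notes), whereas the methods name htseq-count. The deposited values are raw counts of single reads, without strand, and reads matching several places or genes were not counted. The column of control replicate 1, handled as deposited estimated counts, held whole numbers, and rounding changed 0 values. No normalisation was applied by the authors to these columns.

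Control and Erastin were compared with edgeR 4.0.16 (R 4.3.3; filterByExpr with a minimum count of 10, TMM, glmQLFit, glmQLFTest), two-sided, with Benjamini-Hochberg adjustment over 16751 genes. The biological coefficient of variation was 10.3%. CPM used TMM-scaled totals, and CPM per kb used the length of all exons. Counting error alone limits genes with few counts, and PCR copies were not marked. Ratios of related genes were compared by exact two-sided permutation. Exon words of 31 bases were looked up in the genome, alternate scaffolds included. The fit was tested on simulated data.

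The genes and lists were chosen with earlier results of these data known. The rule named all 10 genes, UHRF2, SUV39H2, CDKN1A, MKI67 and, of each list, every called gene up to 4, otherwise the 3 called genes with the largest change in each direction. Alternatives were DESeq2 1.42.0, other scaling and filters, glmTreat, a replicate block, halved counts for read pairs, and each library left out.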

Additional observations from a re-analysis of the deposited data

How the results depend on the processing

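Of 347 values for single genes under alternatives, 331 kept their direction and their side of the thresholds. Testing against the fold threshold itself (glmTreat) gave 377 genes higher and 748 lower in place of 1046 and 1564, and EZH2 then had an adjusted p of 1. Of the 139 pathway genes, 2 were called higher, and this count was 5 with no filter on low counts, 1 with at least 10 counts in every library, 1 with glmTreat and 2 to 4 when single libraries were left out. The count called lower was 14, with 11 under glmTreat and 14 to 18 when single libraries were left out. The log2 difference of DNMT3B to DNMT3A ranged from -0.65 to 0.090 with single libraries left out, positive without Erastin replicate 2, and that of SUV39H1 to SUV39H2 from -0.43 to 0.18, positive without Erastin replicate 1. The log2FC of EED ranged likewise from -0.079 to 0.17, and was negative without control replicate 1 and without Erastin replicate 1. The cause of these changes was not tested. Same-numbered libraries did not deviate together (correlation 0.0203), so the numbers were not used as pairs. With a replicate block, 1039 genes were called higher and 1568 lower, 5 of the 10 genes were called lower, and no call of a named gene changed. With 2 libraries a group, small changes such as that of EED cannot be separated from 0.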
